A study of Mus musculus with 4 samples.

Results

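H19 and 6 other long noncoding RNAs, Malat1, Neat1, Meg3, Gas5, Snhg1 and Snhg8, were followed in liver RNA sequencing of 4 male HuRflox/flox mice (C57BL/6J), all fed a Western diet with sugar water for 4 weeks. The members were the rows of the count table whose Ensembl identifier carries one of these symbols. Of the 7 genes, 6 had a row among the 46603 identifiers of the table, 5 passed the filter on low counts and entered the test of 13001 genes, and H19 was below that filter. Snhg1 was not analysed here. Mice 1 and 2, labelled control, received an AAV8 vector with GFP behind the thyroxine-binding globulin promoter, which is active in hepatocytes. Mice 3 and 4, labelled HuRhKO, received AAV8 with Cre recombinase behind the same promoter, so only hepatocytes would lose HuR while the other liver cells keep it. Each library came from 1 animal, and there were 2 animals in each group. The comparison asks whether these RNAs differed between livers of the 2 labels.

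HuR is an RNA-binding protein encoded by Elavl1, and it prefers U-rich and AU-rich stretches of RNA. H19 is an imprinted RNA made from the maternal chromosome, abundant in fetal liver and largely silent in adult liver, and its first exon carries the hairpin of miR-675, whose release HuR is known to restrain in other cells. Malat1 and Neat1 are nuclear RNAs of neighbouring genes, the first held at nuclear speckles and the second forming the core of paraspeckles. Meg3 is the maternally expressed RNA of the imprinted Dlk1-Meg3 domain, while Gas5, Snhg1 and Snhg8 carry small nucleolar RNAs in their introns and leave a spliced RNA that is commonly removed by nonsense-mediated decay.

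Elavl1, the targeted gene, had 377 and 347 counts in control mice 1 and 2 and 541 and 648 counts in mice 3 and 4 labelled HuRhKO. Its level in CPM (counts relative to a library size scaled by the TMM method) was 28.3 and 25.9 in the controls and 37.7 and 34.4 in the libraries labelled HuRhKO, a log2 fold change of 0.41 (SE, the standard error, 0.135, adjusted p = 0.545 by edgeR's quasi-likelihood test). The targeted gene was thus not lower under the HuRhKO label, and every direction given here follows the labels, which Elavl1 goes against. Over all 13001 genes tested, 3 genes or 0.0231% had an adjusted p-value under 0.05, and 966 genes or 7.43% had an unadjusted p-value under 0.05. The libraries held 13032095 to 19715577 counts, with the largest from mouse 4. All 12 hepatocyte markers were counted, with a summed level of 79840 to 82050 CPM in the controls and 74610 to 85330 CPM in the libraries labelled HuRhKO. For 2 mice against 2, the smallest p-value of an exact permutation test (two-sided) is 0.333.

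The H19 gene spans 142575529 to 142578143 of mouse chromosome 7, minus strand (GRCm38), and its miR-675 hairpin lies at chr7:142577064-142577147. The RefSeq hairpin (GRCm38.p6, minus strand, 5′ to 3′) is shown because it is the stretch of H19 that is cut out into small RNAs, with both mature arms in capitals.
Mir675 hairpin: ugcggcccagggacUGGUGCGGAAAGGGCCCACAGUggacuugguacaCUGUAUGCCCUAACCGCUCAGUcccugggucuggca
The mature forms, at chr7:142577112-142577133 and chr7:142577078-142577099, are shown with the seed (bases 2 to 8, the part that pairs with targets) in capitals. Neither seed was shared with another mature mouse miRNA of the RefSeq table.
mmu-miR-675-5p: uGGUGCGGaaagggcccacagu
mmu-miR-675-3p: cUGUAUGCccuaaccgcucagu

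U-rich and AU-rich stretches, the kind of sequence HuR prefers, were searched on the transcribed strand of the longest GENCODE M21 transcript of each gene, as ATTTA and as runs of at least 7 T (read as U in the RNA). The 2286-base H19 transcript held 1 ATTTA and no run of 7 T. The 6983-base Malat1 transcript held 12 ATTTA and 7 such runs, the 20771-base Neat1 transcript 21 and 14, and the 14548-base Meg3 transcript 9 and 6. Of the 13374 long noncoding genes in that annotation, whose longest transcripts had a median length of 1190 bases, 67.1% held an ATTTA and 31.9% a run of 7 T. The density of T runs was highest among the members in Snhg1, at 1.47 per kilobase, and in Snhg8, at 1.29 from 1 run in 776 bases. Those values were reached by 4.6% and 5.8% of those genes. It was 1.0 per kilobase in Malat1, a value reached by 9.04%. The density of ATTTA in H19 was 0.437 per kilobase, a value reached by 65.1%. It was 0.619 per kilobase in Meg3 and 1.01 in Neat1, values reached by 61.8% and 52.4%, and the highest ATTTA densities among the members were 2.35 per kilobase in Gas5 and 2.2 in Snhg1. A match describes the letters only. The longest transcripts of Snhg8, Snhg1 and Gas5 had 1, 2 and 4 exons, and they may hold letters that splicing removes from other forms. Whether the counted T runs and ATTTA of these genes remain in the spliced RNA was not checked. The single ATTTA of H19 and the longest T run of Malat1, Neat1 and Meg3 are printed in capitals with their flanks, to show the letters that were counted. They lie at chr7:142575818-142575872 (minus strand), chr19:5799342-5799390 (minus), chr19:5834912-5834971 (minus) and chr12:109564672-109564725 (plus).
H19: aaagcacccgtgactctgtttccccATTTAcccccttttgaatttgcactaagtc
Malat1: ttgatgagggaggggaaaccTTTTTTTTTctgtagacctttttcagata
Neat1: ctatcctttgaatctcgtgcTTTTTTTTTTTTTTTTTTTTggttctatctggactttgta
Meg3: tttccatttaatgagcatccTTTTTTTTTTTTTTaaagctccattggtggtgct

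The first bases of the snoRNA host members are shown beside those of Malat1 and Meg3. A start with C followed by pyrimidines is the mark of terminal oligopyrimidine RNAs, whose translation follows growth signals. In windows of 10 bases before and 30 bases from the RefSeq start (GRCm38.p6), with the leading run of C and T in capitals, the second Gas5 start (chr1:161035156-161035195, plus strand), Snhg8 (chr3:123508307-123508346, minus) and Snhg1 (chr19:8723477-8723516, plus) are shown beside Malat1 (chr19:5802643-5802682, minus) and the first Meg3 start (chr12:109540986-109541025, plus).
Gas5: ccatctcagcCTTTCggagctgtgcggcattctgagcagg
Snhg8: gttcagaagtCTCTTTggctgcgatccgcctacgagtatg
Snhg1: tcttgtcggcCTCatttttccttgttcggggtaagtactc
Malat1: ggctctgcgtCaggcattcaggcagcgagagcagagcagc
Meg3: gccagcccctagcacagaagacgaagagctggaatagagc
Gas5 opened with a run of 5 pyrimidines, Snhg8 with 6, Snhg1 with 3 and Malat1 with 1, and Meg3 opened with a purine. The first RefSeq start of Gas5 also opened with a purine. A start of C and at least 4 further pyrimidines was read in 823 of 32851 RefSeq windows, or 2.51%, and in 3 of the 17 listed snoRNA host genes that have a window, namely Gas5, Snhg7 and Snhg8.

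H19 was at the edge of detection in every liver. It had 6 counts in mouse 1 and 0 in mouse 2 of the controls, and 2 counts in mouse 3 and 5 in mouse 4 labelled HuRhKO. These were 0.451, 0, 0.139 and 0.265 CPM, so the groups overlapped and the 2 extremes were the 2 controls. All 4 libraries together gave 13 counts of 60170206, and 1072 of the 3119 long noncoding genes with any count had more counts than H19. Pooled by label there were 6 counts in the controls and 7 in the libraries labelled HuRhKO, and the ratio of the scaled levels (HuRhKO over control) was 0.939, with an exact 95% interval of 0.27 to 3.38 that covers counting error only and compares these libraries rather than the conditions. By counting error alone, these counts leave room for any ratio inside that interval, and no limit of detection was computed. Variation between mice is not in the interval, so ratios outside it are not excluded either. A count of 0 allows up to 3 counts, which was 0.159 to 0.226 CPM in these libraries. In a fit with no filter on low counts the log2 fold change was -0.13 (unadjusted p = 0.922, adjusted p = 0.98 by edgeR's quasi-likelihood test), and its direction changed without control mouse 1, at 4.74, and without mouse 3 labelled HuRhKO, at 0.22. The value without mouse 1 is set against a control library at 0 and depends on the constant added to the counts.

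Control mouse 1, which had the most H19 counts, also stood apart in some bile duct genes but not in all. Krt19, a keratin of cholangiocytes, was 12.2 CPM in mouse 1, 0.373 CPM in mouse 2, 0.488 CPM in mouse 3 and 1.8 CPM in mouse 4. Krt7 was 2.63 CPM in mouse 1 and 0.557 to 0.689 CPM in the other 3 mice, and Epcam was 3.61 CPM against 1.12 to 1.96 CPM. Anxa4 was closer, at 48.1 CPM in mouse 1 and 39.1 to 44.4 CPM in the other 3 mice. Over the whole list of 12 cholangiocyte markers, 11 had a count, and the summed level was 83.2 to 115 CPM in the controls and 97.2 to 106 CPM in the libraries labelled HuRhKO. Of the 7 tested, 2 were higher and 5 lower under the HuRhKO label. Spp1, among the higher, was the only one with an unadjusted p-value under 0.05 in edgeR's quasi-likelihood test, beside 7.43% of all genes tested. The part of these cells in the H19 counts was not tested. In bulk tissue, fewer cells of a type and less RNA per cell cannot be told apart.

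Most other genes of the H19/Igf2 domain were also near 0 counts. Mir675, the gene model of the hairpin printed above, had 0 counts in all 4 libraries, in a library of total RNA that is not made for small RNAs. Igf2, the fetal growth factor gene that shares its enhancers with H19 and is made from the paternal chromosome, had 9 and 5 counts in the controls and 5 and 7 in the libraries labelled HuRhKO. Of the 14 genes listed for the domain 4 were tested, with 2 higher, 2 lower and a median log2 fold change of 0.0011, against 0.002 over all genes tested. Cd81, a tetraspanin gene at the far end of the domain, was the only one with an unadjusted p-value under 0.05, beside 7.43% of all genes tested. It was 226 and 237 CPM in the controls and 154 and 184 CPM under the HuRhKO label, a log2 fold change of -0.45 (SE 0.142, adjusted p = 0.511 by edgeR's quasi-likelihood test). The other 3, Ctsd (-0.01), Lsp1 (0.22) and Mrpl23 (0.01), had overlapping groups.

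Genes of a list built around fetal liver and Zhx2 lay in both directions. Of the 14 listed fetal liver genes and Zhx2 targets (Zhx2 is a repressor of H19 and Afp in adult liver), 8 were tested, with 3 higher, 5 lower and a median log2 fold change of -0.14. Afp, alpha-fetoprotein, had 3 and 17 counts in the controls and 25 and 38 counts under the HuRhKO label, so both of these lay above both controls (log2 fold change 1.32, SE 0.631, adjusted p = 0.684 by edgeR's quasi-likelihood test). Zhx2 itself was 18.6 and 22.4 CPM in the controls and 17.7 and 14.1 CPM under the HuRhKO label, with a log2 fold change of -0.38 (adjusted p = 0.675 by the same edgeR test). Trim24, a nuclear receptor cofactor, had an unadjusted p-value of 0.0309 in the edgeR test across all genes, and was 19.6 and 23.5 CPM against 25.4 and 33.8 CPM. Cd24a had an unadjusted edgeR p-value of 0.037 that rests on control mouse 1, at 13.9 CPM against 2.01 to 2.37 CPM in the other 3 mice. Trim24 and Cd24a were the 2 of 8 under 0.05, beside 7.43% of all genes tested. Dlk1 had 1 count in each library labelled HuRhKO and 0 in the controls, and Igf2bp1 and Lin28b had 0 counts in all 4.

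Among 14 genes listed as partners of H19, the proteins that bind or cut it were taken first. Ptbp1, a splicing repressor known to bind H19, was 88.5 and 86.8 CPM in the controls and 86.8 and 74.2 CPM under the HuRhKO label. Drosha and Dicer1, the nucleases that release miRNAs, had log2 fold changes of -0.14 and -0.03, and Khsrp had -0.08. Of the 12 tested, 6 were higher and 6 were lower, and 2 had an unadjusted p-value under 0.05, beside 7.43% of all genes tested. These were Elavl1 and S1pr2, the bile acid and sphingosine 1-phosphate receptor gene, at 5.34 and 4.7 CPM in the controls and 8.71 and 6.58 CPM under the HuRhKO label (log2 fold change 0.60, SE 0.235, adjusted p = 0.616 by edgeR's quasi-likelihood test). None of these genes passed an adjusted p-value of 0.05 by edgeR's quasi-likelihood or exact test, DESeq2 or limma-voom.

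**Figure D1:**
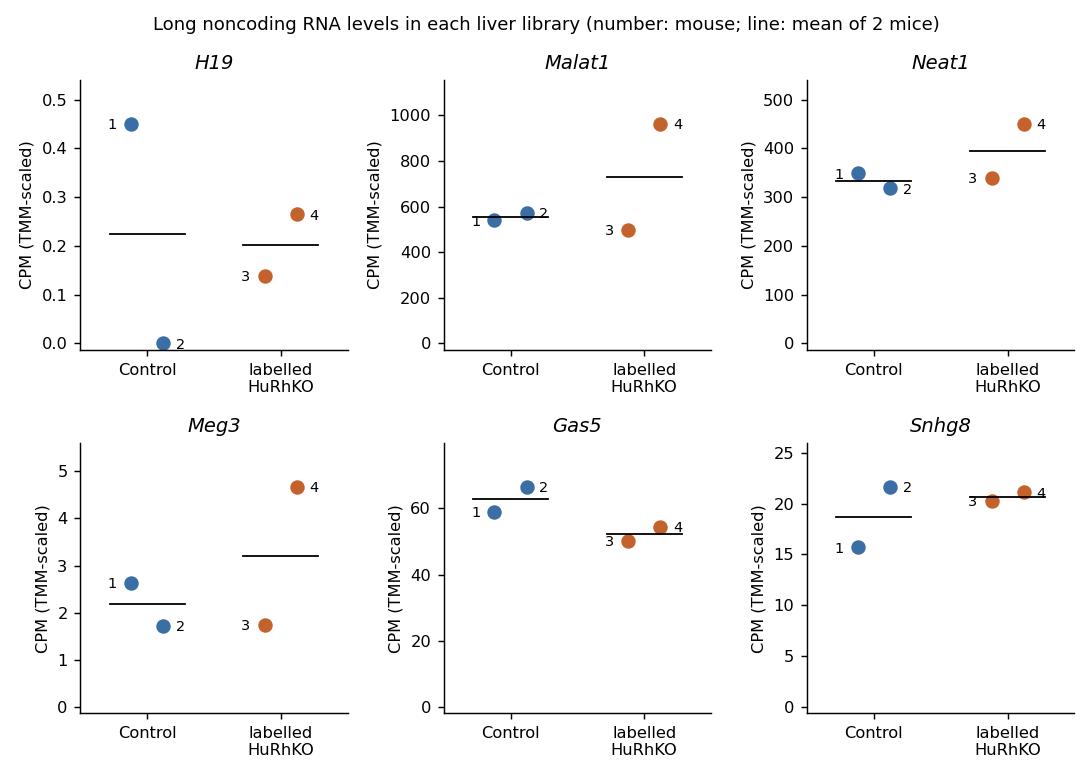
Each panel plots the level of a member (vertical axis, TMM-scaled CPM, from 0) in the control mice (blue, 1 and 2) and the mice labelled HuRhKO (orange, 3 and 4), with a line at the mean of the 2 mice. Mouse 4 sits above the other 3 for Malat1 (964 CPM), Neat1 (451 CPM) and Meg3 (4.67 CPM), and Gas5 alone has both orange points under both blue points.

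Of the 5 members tested, 4 had a positive and 1 a negative fold change, and none had an adjusted or an unadjusted p-value under 0.05 in edgeR's quasi-likelihood test, edgeR's exact test, DESeq2 or limma-voom. That is 0 of 5 beside 7.43% of all genes for the unadjusted threshold. Gas5 was the only member whose groups did not overlap, with both libraries labelled HuRhKO lower, a pattern that 18.8% of all genes tested showed in that direction and 19.3% showed in the other.

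Malat1 was the most abundant member. It spans 5795690 to 5802672 of chromosome 19, minus strand, and is a single exon of 6983 bases. Its levels were 541 and 572 CPM in the controls and 499 and 964 CPM in mice 3 and 4, from 7197, 7670, 7163 and 18181 counts. Mouse 3 had the lowest level and mouse 4 the highest, so the control values lay between the 2 mice labelled HuRhKO. The mean was 556 ± 22 CPM in the controls and 732 ± 329 CPM under the HuRhKO label (SD, n = 2), with a log2 fold change of 0.39 (SE 0.273, adjusted p = 0.781 by edgeR's quasi-likelihood test). Without mouse 4 the log2 fold change was -0.16, and without mouse 3 it was 0.78 with an unadjusted p-value of 0.00325 and an adjusted p of 0.44 by the same edgeR test.

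A gene model of the opposite strand lies wholly inside Malat1. Gm37376, on the plus strand from 5801941 to 5802393 and 453 bases long, carries the annotation class TEC, for models that still await experimental evidence. It had 365 and 783 counts in the controls and 490 and 1288 counts under the HuRhKO label, and per exon length it was the second of all 8708 long noncoding genes in the table, at a mean of 224 TPM, above Malat1 at 200 TPM. Whether reads were counted by strand is not given in the sources used here, so reads of Malat1 and of Gm37376 in that stretch cannot be told apart. Its log2 fold change was 0.26 (SE 0.382, adjusted p = 0.909 by edgeR's quasi-likelihood test), and it was higher in mouse 2 than in mouse 1 by 2.13 times, where Malat1 differed by 1.06 times.

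Neat1, on the same strand of chromosome 19 from 5824708 to 5845478, had 349 and 319 CPM in the controls and 341 and 451 CPM in mice 3 and 4. The groups overlapped, with mouse 4 above the other 3. The log2 fold change was 0.25 (SE 0.169, adjusted p = 0.78 by edgeR's quasi-likelihood test), and without mouse 4 it was 0.03. Counts per gene do not separate the short and the long Neat1 RNA, which share their start, and only the long one builds paraspeckles. The other tested genes around Malat1 and Neat1, 7 of them, had overlapping groups except Dpf2, which was lower by 0.12 on the log2 scale, and none of the 9 tested genes of this locus had an unadjusted p-value under 0.05 by edgeR, DESeq2 or limma-voom.

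Genes of paraspeckle proteins, the partners of Neat1, lay on both sides of 0. Of 18 listed and tested, 7 were higher and 11 lower, and the median of the log2 fold changes was -0.08, and 6 had an unadjusted p-value under 0.05 in edgeR's quasi-likelihood test and in limma-voom but 2 in DESeq2 and 3 in edgeR's exact test, beside 7.43% of all genes tested in the first of these. None had an adjusted p-value under 0.05 in any of these. Sfpq, which holds Neat1 in the paraspeckle, was 56.5 and 51.2 CPM in the controls and 46.3 and 39.98 CPM under the HuRhKO label (log2 fold change -0.32, SE 0.139, adjusted p = 0.668 by edgeR's quasi-likelihood test). Its partner Nono had a log2 fold change of -0.02, and its groups overlapped. Hnrnph1 (-0.40) and Tardbp (-0.28) also lay lower, and Pspc1 (0.59) and Smarca4 (0.36) lay higher in both libraries labelled HuRhKO. The list was written with earlier results of these data known, and 9 of its 18 genes had both HuRhKO-labelled libraries below both controls, beside 18.8% of all genes tested.

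**Figure D2:**
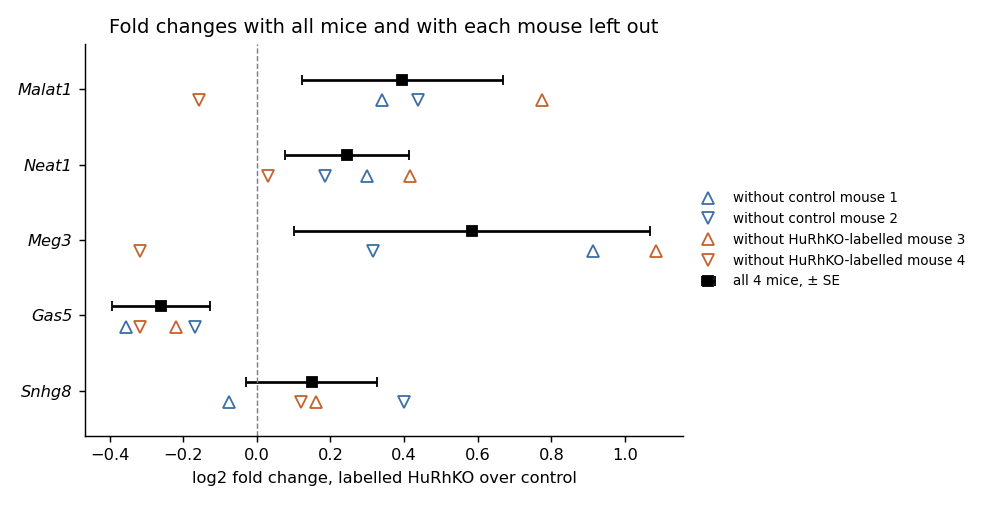
The horizontal axis is the log2 fold change of each tested member (labelled HuRhKO over control), with the value from all 4 mice as a black square (± SE) and the value without each mouse as triangles, where the mouse left alone in its group is assumed to vary like the others. Without mouse 4, Malat1 falls to -0.16 and Meg3 to -0.32, while Gas5 stays between -0.36 and -0.17.

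Meg3 was sparse and had the largest SE among the tested members. It lies on the plus strand of chromosome 12 from 109541001 to 109571726, and had 35 and 23 counts in the controls and 25 and 88 counts in mice 3 and 4. Its levels were 2.63, 1.72, 1.74 and 4.67 CPM, with mouse 4 above the other 3 and mouse 3 next to control mouse 2. The log2 fold change was 0.58 (SE 0.483, adjusted p = 0.83 by edgeR's quasi-likelihood test). Without mouse 4 it was -0.32, and without mouse 3 it was 1.08 with an unadjusted edgeR p-value of 0.0324 and an adjusted p of 0.806.

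Other genes of the Dlk1-Meg3 domain were low. Rian, a snoRNA-bearing RNA that is transcribed after Meg3 along the same chromosome, had 13 and 2 counts in the controls and 15 and 28 counts under the HuRhKO label (log2 fold change 1.17, SE 0.707, adjusted p = 0.752 by edgeR's quasi-likelihood test). Mirg had 1 or 2 counts in each library, and Rtl1 had 0 in all 4. Of the 9 genes listed for the domain 5 were tested, 3 higher and 2 lower, and none had an unadjusted p-value under 0.05 by edgeR's quasi-likelihood or exact test, DESeq2 or limma-voom. The values were 0.22 for Dio3, -0.19 for Wars and -0.46 for Wdr25 on the log2 scale.

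Meg3 is known mainly from stromal cells of the liver, and their markers were set beside it. The 12 stellate cell markers, all of them counted, summed to 235 CPM in each control library, 256 CPM in mouse 3 and 317 CPM in mouse 4. Of these 12, 10 were higher and 2 lower, among the lower Des at -0.30 on the log2 scale. Col1a1 (log2 fold change 0.63) and Col3a1 (0.59) were the 2 with unadjusted p-values under 0.05, at 0.0258 and 0.0128 in the edgeR test across all genes. Their adjusted p-values were 0.58 and 0.522, and 7.43% of all genes tested had an unadjusted p-value under 0.05. The 12 endothelial markers summed to 281 to 325 CPM in the controls and 319 to 366 CPM under the HuRhKO label, and the 12 Kupffer cell markers to 280 to 295 CPM and 309 to 331 CPM. Erythroid markers, of which 7 had a count, summed to 363 and 450 CPM in the controls, 488 CPM in mouse 3 and 710 CPM in mouse 4. The part of these cells in the Meg3, Malat1 and Neat1 levels was not tested.

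Mice 3 and 4 differed from each other in some members and hardly in others. Between the 2 mice labelled HuRhKO, the ratio of mouse 4 to mouse 3 was 2.68 for Meg3, 1.93 for Malat1 and 1.32 for Neat1, and it was 1.08 for Gas5 and 1.04 for Snhg8. Over all genes tested, the log2 of this ratio lay between -0.64 and 0.68 for the middle 90% of genes, and the values were 1.42 for Meg3, 0.95 for Malat1 and 0.41 for Neat1. Over 581 tested long noncoding genes with counts in both mice, its median was 0.07 and the middle 90% lay between -1.08 and 1.37, a range that holds Malat1 and Neat1 and ends just below Meg3. Kcnq1ot1, the long antisense RNA of another imprinted domain on chromosome 7, was 6.91 and 6.71 CPM in the controls, 5.23 CPM in mouse 3 and 10.9 CPM in mouse 4. Of the 27 genes listed as the imprinted network that H19 belongs to, 20 were tested, with 12 higher, 8 lower and a median log2 fold change of 0.10. Mcts2, a retrogene made from the paternal chromosome, was the only one of them with an unadjusted edgeR p-value under 0.05, at 4.06 and 3.5 CPM in the controls and 5.92 and 6.15 CPM under the HuRhKO label (log2 fold change 0.67, adjusted p = 0.574). That is 1 of 20 beside 7.43% of all genes tested, and DESeq2 gave no gene of this list an unadjusted p-value under 0.05.

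Gas5 lay lower under the HuRhKO label, by less than the test could call. It lies on the plus strand of chromosome 1 from 161034422 to 161038539. Its levels were 58.9 and 66.4 CPM in the controls and 50.2 and 54.4 CPM in mice 3 and 4, from 784, 891, 721 and 1027 counts. Both libraries labelled HuRhKO were below both controls. The mean was 62.7 ± 5.32 CPM against 52.3 ± 2.98 CPM (SD, n = 2), a log2 fold change of -0.26 (SE 0.133, unadjusted p = 0.0857, adjusted p = 0.698 by edgeR's quasi-likelihood test). It stayed negative with each mouse left out, between -0.36 and -0.17. Zbtb37, a protein-coding gene of the opposite strand, overlaps the first 428 bases of the Gas5 gene and had 117 and 163 counts in the controls and 120 and 137 counts under the HuRhKO label, and the reads of that stretch cannot be told apart either.

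Snhg8, at 123507552 to 123508404 of chromosome 3, minus strand, had 15.7 and 21.6 CPM in the controls and 20.3 and 21.1 CPM in mice 3 and 4. The lowest value was control mouse 1, and the other 3 mice lay together. The log2 fold change was 0.15 (SE 0.177, adjusted p = 0.885 by edgeR's quasi-likelihood test), and without control mouse 1 it was -0.08.

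The fold changes of the snoRNA hosts lay on both sides of 0. Of 20 listed 14 were tested, 6 of them higher and 8 lower, and the median of the log2 fold changes was -0.0026. None had an unadjusted p-value under 0.05 in edgeR's quasi-likelihood test, DESeq2 or limma-voom, and 1 did in edgeR's exact test. Snhg18 had the highest value, 1.07 (SE 0.476), from 16 and 9 counts in the controls and 35 and 29 counts under the HuRhKO label. Snhg15 (0.56) and Snhg3 (0.42) were also higher in both libraries labelled HuRhKO, and Snhg14 (-0.64) was lower in both, like Gas5. The other 9 overlapped. That is 3 of 14 higher and 2 of 14 lower without overlap, near the 19.3% and 18.8% of all genes tested. Snhg11 was 0.31, Snhg17 0.26, Snhg12 -0.0018, Snhg6 -0.0033, Snhg20 -0.05, Zfas1 -0.07, Snhg5 -0.15 and Epb41l4aos -0.17 on the log2 scale, beside Snhg8.

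The factors of nonsense-mediated decay, which removes spliced snoRNA hosts, were listed beside them. Of 15 listed and tested, 6 were higher and 9 lower, and the median of the log2 fold changes was -0.07. Upf1, the helicase of the pathway, was 71.4 and 87.0 CPM in the controls and 73.6 and 77.6 CPM under the HuRhKO label. Smg6, the endonuclease, was the only one with an unadjusted p-value under 0.05 in edgeR's quasi-likelihood test, which is 1 of 15 beside 7.43% of all genes tested. It was 32.4 and 34.1 CPM in the controls against 23.7 and 27.1 CPM (log2 fold change -0.39, SE 0.137, adjusted p = 0.574).

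**Figure D3:**
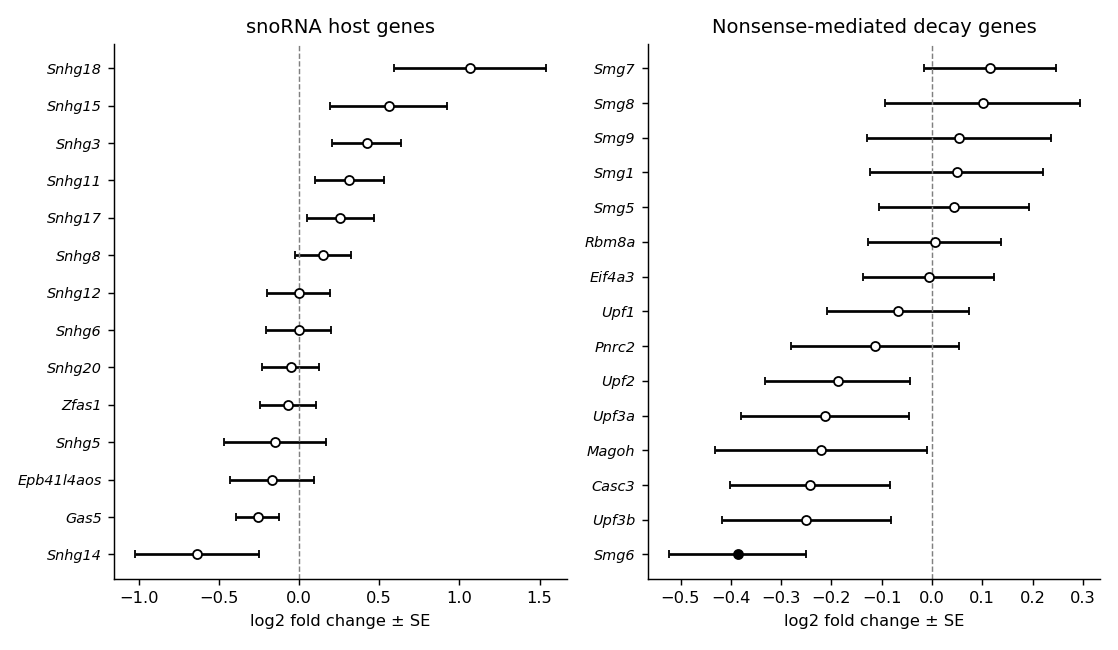
The log2 fold changes (labelled HuRhKO over control, ± SE) of the 14 tested snoRNA host genes and the 15 genes of nonsense-mediated decay are plotted gene by gene, each panel on its own scale, and filled points have an unadjusted edgeR p-value under 0.05. No snoRNA host is filled, and Smg6, at -0.39, is the 1 decay gene that is, beside 7.43% of all genes tested.

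Compared per exon length, in TPM computed from the counts and the merged exon length of each gene, the members fell into 3 levels. Malat1 was 166 to 282 TPM and above all others in every mouse. Snhg8 (42.2 to 55.1 TPM), Neat1 (32.6 to 44.3 TPM) and Gas5 (29.6 to 37.5 TPM) came next. The ranges of Snhg8 and Neat1 overlapped, as did those of Neat1 and Gas5, but Snhg8 was above Gas5 in every mouse. Meg3 (0.202 to 0.527 TPM) and H19 (0 to 0.421 TPM) were far lower and overlapped each other. By mean TPM, Malat1 ranked 3, Snhg8 12, Neat1 15 and Gas5 23 among the 8708 long noncoding genes of the table. A merged exon length counts every annotated exon, so a gene that uses a short form, as Neat1 can, has a lower TPM by this reckoning. The merged lengths of Gas5 (3760 bases, 25 annotated transcripts) and Snhg8 (853 bases, 3 transcripts) are likewise upper limits for a single form. The order of the members and their ranks therefore hold for merged lengths only, and levels per spliced length were not computed.

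**Figure D4:**
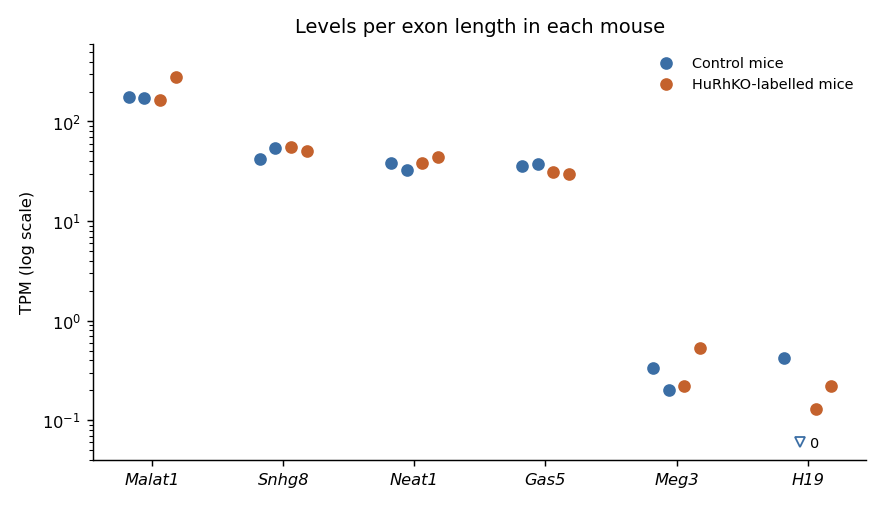
The level per exon length (vertical axis, TPM, log scale) is drawn for each control mouse (blue) and each mouse labelled HuRhKO (orange), and the open triangle marks control mouse 2, where H19 had 0 counts. Malat1 lies at 166 to 282 TPM and H19 at most at 0.421 TPM.

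The genes whose profile over the 4 libraries was most like that of a member were taken as those with the smallest Euclidean distance between log2 CPM values centred on each gene's own mean, among genes with a mean log2 CPM of at least 1. Nearest to Malat1 were Gsn (distance 0.0811), Neb and Gins1, nearest to Neat1 were Gcnt2 (0.0344), Fbxo31 and Slc15a4, and nearest to Meg3 were Arrdc2 (0.229), Fbln1 and Gm14296. Gas5 was closest to Fancc (0.0211), Josd2 and Lrig2, and Snhg8 to Wrap53 (0.0208), Tmem102 and Klhl6. No such list is given for H19, since its profile rests on 13 counts.

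The members can be read against all annotated long noncoding genes. The class was taken as GENCODE M21 gives it and was not checked gene by gene. A symbol in it, such as Spata5l1 or Cct6a, need not stand for a noncoding RNA. Of 584 tested, 280 were higher and 304 lower, and the median of the log2 fold changes was -0.03. Of these, 46 or 7.88% had an unadjusted p-value under 0.05, 17 higher and 29 lower, beside 7.43% of all genes. The groups did not overlap for 91 higher and 118 lower genes, which was 15.6% and 20.2%, beside 19.3% and 18.8% of all genes. Tmem250-ps, on chromosome 2, was the only long noncoding gene with an adjusted p-value under 0.05, at 76.5 and 78.1 CPM in the controls and 30.4 and 25.7 CPM under the HuRhKO label (adjusted p = 0.0335 by edgeR's quasi-likelihood test). Without mouse 3 or without mouse 4 its adjusted p was above 0.05, at up to 0.226.

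C730036E19Rik came next. This lincRNA on the plus strand of chromosome 1 from 151138034 to 151142345 had 161 and 159 counts in the controls and 49 and 66 counts in the libraries labelled HuRhKO, which was 12.1 and 11.9 CPM against 3.41 and 3.5 CPM. The log2 fold change was -1.79 (SE 0.198, adjusted p = 0.0514 by edgeR's quasi-likelihood test), and it was past the threshold in 5 of the 9 other settings with all mice and in 2 of the 4 fits with a mouse left out, and without mouse 3 or mouse 4 the adjusted p was up to 0.237. The next 3 lower genes by unadjusted p were AY036118 (-0.85), 8430422M14Rik (-1.74) and Gm43597 (-1.27). The 5 higher ones were Gm19619 (0.97), Gm11752 (1.63), Gm10076 (0.51), Spata5l1 (0.68) and Hnf4aos (0.73), all with adjusted p-values of 0.397 or more in the edgeR test.

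Other long noncoding RNAs with known names were listed as well. Of 29 listed 14 were tested, 5 higher and 9 lower, and the median of the log2 fold changes was -0.13. Firre, an X-linked nuclear RNA, was 37.3 and 41.2 CPM in the controls and 27.7 and 30.9 CPM under the HuRhKO label (log2 fold change -0.42, SE 0.137, unadjusted p = 0.0148, adjusted p = 0.53 by edgeR's quasi-likelihood test). With C730036E19Rik it was 1 of 2 among the 14 with an unadjusted p-value under 0.05 in that test, beside 7.43% of all genes tested. Both HuRhKO-labelled libraries lay below both controls for 6 of the 14 and above them for 2, beside 18.8% and 19.3% of all genes tested. The list was written with earlier results of these data known. Tug1 was -0.16, Mir22hg -0.10 and Dleu2 -0.28 on the log2 scale.

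**Figure D5:**
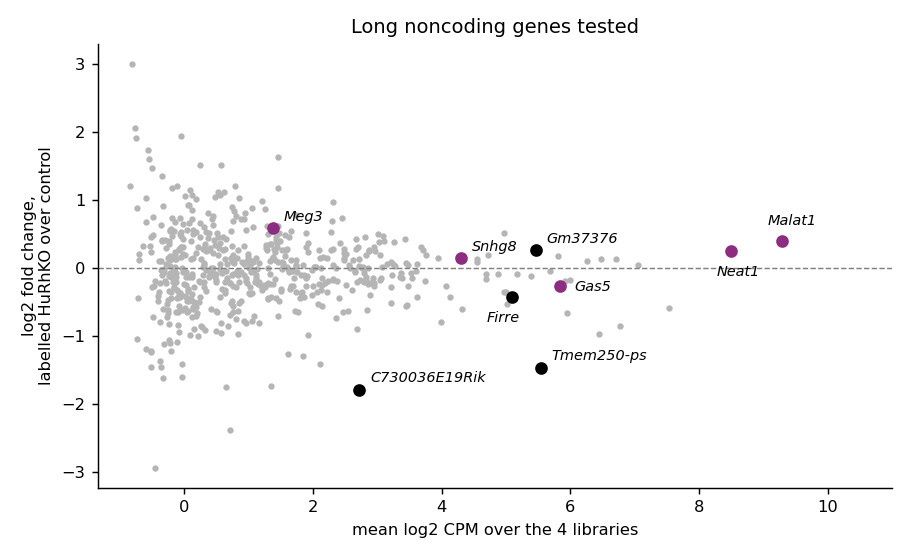
Each point is a tested long noncoding gene, placed by its mean log2 CPM over the 4 libraries (horizontal axis) and its log2 fold change, labelled HuRhKO over control (vertical axis), with the 5 tested members in purple and 4 other named genes in black. The members lie between -0.26 and 0.58, while Tmem250-ps lies at -1.47 and C730036E19Rik at -1.79.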

How the data were processed

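Total liver RNA of 4 mice was sequenced, 1 library each. The authors deposited raw counts of reads per Ensembl gene, as whole numbers without normalization, in 1 table. Their processing notes name RSEM and GRCm38, and the version, aligner and strand setting are not given in the sources used here. Symbols, positions and classes came from GENCODE M21, and sequences from RefSeq (GRCm38.p6) and GENCODE transcripts. Counts were scaled with TMM factors and tested with edgeR 4.0.16 (glmQLFTest, filterByExpr with a minimum of 10 and a total of 15, 13001 genes, Benjamini-Hochberg adjustment), and CPM are on the scaled sizes. TPM were counts per merged exon length. The test was tried on simulated data first. All pairs of libraries differed by more than sampling noise.

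Named genes were all members, the genes of each list with an unadjusted p-value under 0.05 (otherwise those of highest CPM), every tested gene of the H19/Igf2 domain, the Dlk1-Meg3 domain and the snoRNA hosts, the nearest profiles, and up to 5 higher and 5 lower long noncoding genes. Others (Afp, Zhx2, Gm37376, Zbtb37 and further list members and markers given with values) were picked after their values were seen. The members and lists were chosen with earlier results of these data known. Alternatives were other scalings and filters, DESeq2 1.42.0, edgeR's exact and robust tests, limma-voom 3.58.1 and leaving out each mouse. The H19 alternatives, with no filter, were chosen after seeing the data. Intervals and limits of a count of 0 cover counting error only. Some genes that the rule covers are left out here.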

Additional observations from a re-analysis of the deposited data

How the results depend on the processing

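With 2 mice in a group and a targeted gene that goes against the label, neither a difference nor its absence is settled for any member, and H19 is limited by its 13 counts. The counts of genes with an adjusted p-value under 0.05, 2 higher and 1 lower, were 4 and 4 with library totals only, 80 and 81 with no filter beyond a count of 1, 50 and 35 with DESeq2, 69 and 51 with edgeR's exact test and 4 and 4 with the robust test. The higher count was 1 with at least 10 counts in every library and 1 with limma-voom. With a mouse left out, the counts ranged from 0 to 30 higher and from 0 to 43 lower, and both were 0 without mouse 3. Members with an unadjusted p-value under 0.05 numbered 0 in every setting with all mice, and 0 to 2 with a mouse left out, where the 2 were Malat1 and Meg3 without mouse 3. No member had an adjusted p-value under 0.05 in any setting. Left-out values ranged from -0.16 to 0.78 for Malat1, 0.03 to 0.42 for Neat1, -0.32 to 1.08 for Meg3, -0.36 to -0.17 for Gas5, -0.076 to 0.40 for Snhg8 and -1.08 to 4.74 for H19, and H19 was 0.75 with limma-voom. The cause of these shifts was not tested. No paired analysis was possible because the groups share no mouse number.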

Other observations

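Further gene models were read, some of them beside the members, and had few or no counts. Frmd8os, an antisense gene that begins just beyond Neat1 on chromosome 19, had 1 and 0 counts in the controls, 1 in mouse 3 and 10 in mouse 4. The misc_RNA models Gm27483 and Gm27786 on the opposite strand of H19 and the lincRNA Gm26906 opposite Meg3 had 0 counts in all 4 libraries. Rpph1, the RNA of RNase P, had 1 count in each control library, 5 in mouse 3 and 8 in mouse 4. Rmrp, the RNA of RNase MRP, had 2 counts in each control library, 4 in mouse 3 and 5 in mouse 4.

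Counts of pancreas genes differed between libraries. Ctrb1, a chymotrypsinogen gene, had 54 counts in control mouse 1 and 0 in mouse 2, 3 in mouse 3 and 0 in mouse 4, and Pnlip, pancreatic lipase, had 9 counts in mouse 3 and 0 in the others. Of the 10 pancreas markers 7 had a count, and Amy2a2, Cela3b and Ins2 were at 0 in all 4. The list summed to 9.62 to 13.7 CPM in the controls and 12.8 to 20.5 CPM under the HuRhKO label, most of it Cela1, an elastase gene that liver also expresses.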
